A study of Mus musculus with 9 samples.

Results

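The acute phase protein genes are a set of liver-centred genes that respond when the body meets injury or inflammation. Most of their products are secreted into blood, and that of Socs3 restrains the response within the cell. The 10 members described here were chosen by symbol, Saa1, Saa2, Saa3, Orm1, Orm2, Hp, Hpx, Lcn2, Itih4 and Socs3, out of 52176 gene symbols in the tables of the 9 tumors. In each tumor the level of a member was the FPKM (fragments mapped to a transcript, scaled by its length and by library size) summed over the entries that name it. All tumors were grown in the liver of male C57BL/6 mice from Hepa1-6 cells, a mouse hepatoma line, implanted as pieces of tumor tissue. The 3 PBS tumors came from mice that received PBS, and the 3 nonresponsive and 3 responsive tumors from mice that received anti-PD-1 antibody, in each case by intraperitoneal injection every 4 days for a total of 5 times. Each tumor was 1 mouse. Among antibody-treated mice the 3 largest tumors were called nonresponsive and the 3 smallest responsive, and intermediate ones were set aside, so that group and tumor size cannot be told apart.

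In the acute phase response, interleukin-6 and interleukin-1 from activated macrophages and other cells reach hepatocytes, where STAT3, C/EBP and NF-kB factors switch on the genes of positive acute phase proteins while output of negative acute phase proteins such as albumin and transthyretin is lowered. Serum amyloid A proteins travel on high-density lipoprotein, haptoglobin and hemopexin clear hemoglobin and heme, orosomucoid binds drugs and lipids, lipocalin-2 withholds iron from bacteria, and SOCS3 is an intracellular brake on STAT3 signaling. Several of these genes are also transcribed outside hepatocytes, Saa3 in macrophages and other cells and Lcn2 in neutrophils.

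Of the whole data set, the following bears on these genes. The number of sequenced fragments is not in the tables, and relative to PBS tumor 1 it could be read off the steps between low values, from 0.935 to 1.07 times. Unnamed entries held from 19.2% to 81.5% of all FPKM, the most in PBS tumor 1, and between 70.4% and 73.2% in nonresponsive against 21.0% to 55.1% in responsive tumors. The label of hepatoma tissue was checked with Afp, the fetal liver protein that marks hepatoma cells. Its FPKM was 20.4, 25.3 and 18.2 in PBS tumors 1 to 3, 0.32, 9.18 and 56.5 in nonresponsive tumors 1 to 3, and 0.65, 53.9 and 4.40 in responsive tumors 1 to 3. Nonresponsive tumor 1 and responsive tumor 1 therefore held next to none of this marker, and the same pair was lowest for the proliferation genes Mki67 and Top2a. Other genes of that list did not follow this order, as the fetal growth factor gene Igf2 was highest in the same pair, at 5.47 and 6.13, and H19 lay, in both, within the 2.87 to 39.3 of the other tumors. Nonresponsive tumor 2 alone carried digestive enzyme genes of the pancreas, with Ctrb1 at 415, Prss2 at 255 and Cela2a at 250.2, while Ctrb1 and Cela2a were listed at 0 in the other 8 tumors, and the adipocyte gene Cfd was highest there at 42.0. Mean levels of 20 hepatocyte genes, in log2(FPKM + 1), ran from 2.11 to 4.97 in PBS, from 4.28 to 6.11 in nonresponsive and from 6.18 to 7.24 in responsive tumors, with PBS tumor 1 at the bottom. In such bulk tissue, more cells of a type and more RNA per cell cannot be told apart.

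The promoters of 8 members (GRCm38.p6, from RefSeq, 250 bases before to 50 after the start of transcription) were read for letters bound by the factors of this pathway. They are shown for the twin genes Saa1 and Saa2 and for Itih4, the member with the clearest difference between groups. That of Socs3, the member with the smallest spread over the tumors, is shown as well. Capitals mark the C/EBP letters TTGCNNAA in Saa1 and Saa2 and the STAT letters TTCNNNGAA in Itih4 and Socs3. Saa1 lies at chr7:46742931-46743230 on the minus strand, Saa2 at chr7:46751583-46751882 on the plus strand, Itih4 at chr14:30886226-30886525 on the plus strand and Socs3 at chr11:117969317-117969616 on the minus strand.
Saa1: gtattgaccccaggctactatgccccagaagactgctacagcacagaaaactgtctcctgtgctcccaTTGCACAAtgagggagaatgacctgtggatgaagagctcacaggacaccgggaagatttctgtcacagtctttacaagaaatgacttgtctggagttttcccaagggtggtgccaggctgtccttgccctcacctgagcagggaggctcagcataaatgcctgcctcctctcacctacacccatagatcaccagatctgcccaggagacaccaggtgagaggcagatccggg
Saa2: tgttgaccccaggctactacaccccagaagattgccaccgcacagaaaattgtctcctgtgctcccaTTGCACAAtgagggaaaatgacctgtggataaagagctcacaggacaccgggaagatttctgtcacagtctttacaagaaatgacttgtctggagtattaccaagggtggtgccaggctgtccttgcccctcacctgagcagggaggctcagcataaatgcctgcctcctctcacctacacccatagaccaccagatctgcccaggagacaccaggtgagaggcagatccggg
Itih4: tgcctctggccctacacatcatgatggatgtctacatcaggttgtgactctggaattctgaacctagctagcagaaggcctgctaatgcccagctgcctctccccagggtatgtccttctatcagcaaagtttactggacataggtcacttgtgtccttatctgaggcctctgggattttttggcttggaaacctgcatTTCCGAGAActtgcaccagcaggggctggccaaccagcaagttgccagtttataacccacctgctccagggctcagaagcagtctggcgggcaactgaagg
Socs3: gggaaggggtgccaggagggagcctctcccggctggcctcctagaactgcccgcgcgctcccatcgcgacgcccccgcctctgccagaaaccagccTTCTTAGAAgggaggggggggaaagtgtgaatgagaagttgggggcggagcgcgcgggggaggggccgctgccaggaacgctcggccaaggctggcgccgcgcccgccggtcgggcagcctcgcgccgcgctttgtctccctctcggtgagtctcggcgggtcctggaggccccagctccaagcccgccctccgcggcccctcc
The Saa1 and Saa2 promoters had 287 of 300 bases in common. The C/EBP letters, searched on both strands, were found in 6 of the 8 promoters, those of Saa1, Saa2, Saa3, Orm2, Hpx and Lcn2, against 10.8% of 32851 mouse promoters. The STAT letters were found in 2, at bases −51 to −43 of Itih4 and −154 to −146 of Socs3, against 8.3% of promoters. The NF-kB motif was found in 0 of the 8 windows and in 8.46% of promoters. The letters searched for it are not given here, and a looser pattern could give another count. Such letters describe the sequence and do not show binding, and the promoters of Orm1 and Hp were not used here.

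Serum amyloid A transcripts were abundant in 8 tumors and far lower in PBS tumor 1. Saa2, which never shared an entry with another gene, had an FPKM of 88.9, 415 and 1224 in PBS tumors 1 to 3, of 2949, 823 and 590.0 in nonresponsive tumors 1 to 3, and of 2016, 1125 and 1255 in responsive tumors 1 to 3. PBS tumor 1 was lowest and nonresponsive tumor 1 highest, and the 3 groups overlapped throughout. Saa1 and Saa3 were entries of their own only in the first tumor of each group. There Saa1, the liver form made alongside Saa2, had an FPKM of 114 in PBS tumor 1, 4536 in nonresponsive tumor 1 and 3421 in responsive tumor 1, and Saa3, the form also made outside the liver, was higher than Saa1 each time, at 169, 7154 and 5583. In the other 6 tumors the pair shared 1 entry, so their values were added in all tumors. The sum was 283, 3552 and 3164 in PBS tumors, 11689.9, 3135 and 2233 in nonresponsive tumors, and 9004, 2859 and 4099.9 in responsive tumors. High sums thus belonged to tumor 1 of both antibody-treated groups. In both of these tumors separate entries were added, where the other treated tumors held 1 shared entry. A high level and the splitting of the entry therefore cannot be told apart among treated tumors. The other tumors lay between 2233 and 4099.9, with PBS tumor 1 far below. By FPKM, Saa3 ranked between 12th and 49th among the symbols of 8 tumors, in 6 of them as the entry shared with Saa1, and 537th in PBS tumor 1. Saa2 ranked between 33rd and 314th in the same 8 tumors and 1099th in PBS tumor 1. Saa1 and Saa2 transcripts are 94.4% identical in sequence and 13.2% of the 50-base words of Saa1 recur in Saa2, so how reads were divided between them is uncertain.

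Orosomucoid transcripts were likewise lowest in PBS tumor 1. Orm1 and Orm2, which encode near-identical carrier proteins, were separate only in PBS tumors 1 and 2, with Orm1 at 48.1 and 336.9 and Orm2 at 33.2 and 213. Elsewhere they shared an entry with the third copy Orm3 and mostly with Gm11212. Added over these genes, the FPKM was 81.6, 554 and 1511 in PBS tumors 1 to 3, 2479.9, 1175 and 637 in nonresponsive tumors 1 to 3, and 2623, 913 and 2311 in responsive tumors 1 to 3. Responsive tumor 1 and nonresponsive tumor 1 were highest, PBS tumor 1 was lowest, and no group stood clear of another. Orm1 and Orm2 transcripts are 91.0% identical, and in the antibody-treated tumors both symbols are 1 measurement.

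The scavengers of hemoglobin and heme followed next. Haptoglobin, encoded by Hp and measured in entries of its own, had an FPKM of 145, 1309 and 2127 in PBS tumors 1 to 3, of 4152, 1995 and 1306 in nonresponsive tumors 1 to 3, and of 5459, 1934 and 3631 in responsive tumors 1 to 3. Hemopexin, encoded by Hpx, had an FPKM of 112, 770.3 and 1776 in PBS tumors, of 3020.5, 1287 and 1160.3 in nonresponsive tumors, and of 4096, 1596 and 3127 in responsive tumors, in an entry that it shared with the neighbouring Trim3, and in some tumors Arfip2, in 5 of 9 tumors. For both genes responsive tumors 1 and 3 and nonresponsive tumor 1 were high, and responsive tumor 2 lay within the range of the other groups.

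Lipocalin-2 and the inter-alpha-trypsin inhibitor heavy chain 4 differed in how they spread. Lcn2 had an FPKM of 35.1, 553 and 1050.5 in PBS tumors 1 to 3, of 1639, 1127 and 458 in nonresponsive tumors 1 to 3, and of 1991, 489 and 1522 in responsive tumors 1 to 3, and shared its entry with 1110008P14Rik in 6 tumors. Responsive tumor 2 and nonresponsive tumor 3 were nearly equal at the low end of the treated tumors. Itih4, a secreted liver protein of the inhibitor family that is cleaved by kallikrein, had an FPKM of 9.72, 79.0 and 123 in PBS tumors, of 192, 136 and 77.5 in nonresponsive tumors, and of 307, 191 and 264 in responsive tumors. All responsive tumors exceeded all PBS tumors, and of the nonresponsive tumors only tumor 1 reached, by less than 1 FPKM, the lowest responsive tumor.

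Socs3 stood apart from the secreted proteins. Its FPKM was 65.0, 138 and 113 in PBS tumors 1 to 3, 158, 73.7 and 76.0 in nonresponsive tumors 1 to 3, and 89.6, 66.3 and 84.3 in responsive tumors 1 to 3. The highest tumor exceeded the lowest 2.43-fold, where the other 7 loci, joined where genes shared entries, spanned from 28.9-fold for Lcn2 to 41.3-fold for Saa1 with Saa3. The Cufflinks 95% bounds of Socs3 in PBS tumor 3 reached from 0 to 3101, so that this 1 value is poorly determined.

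**Figure D1:**
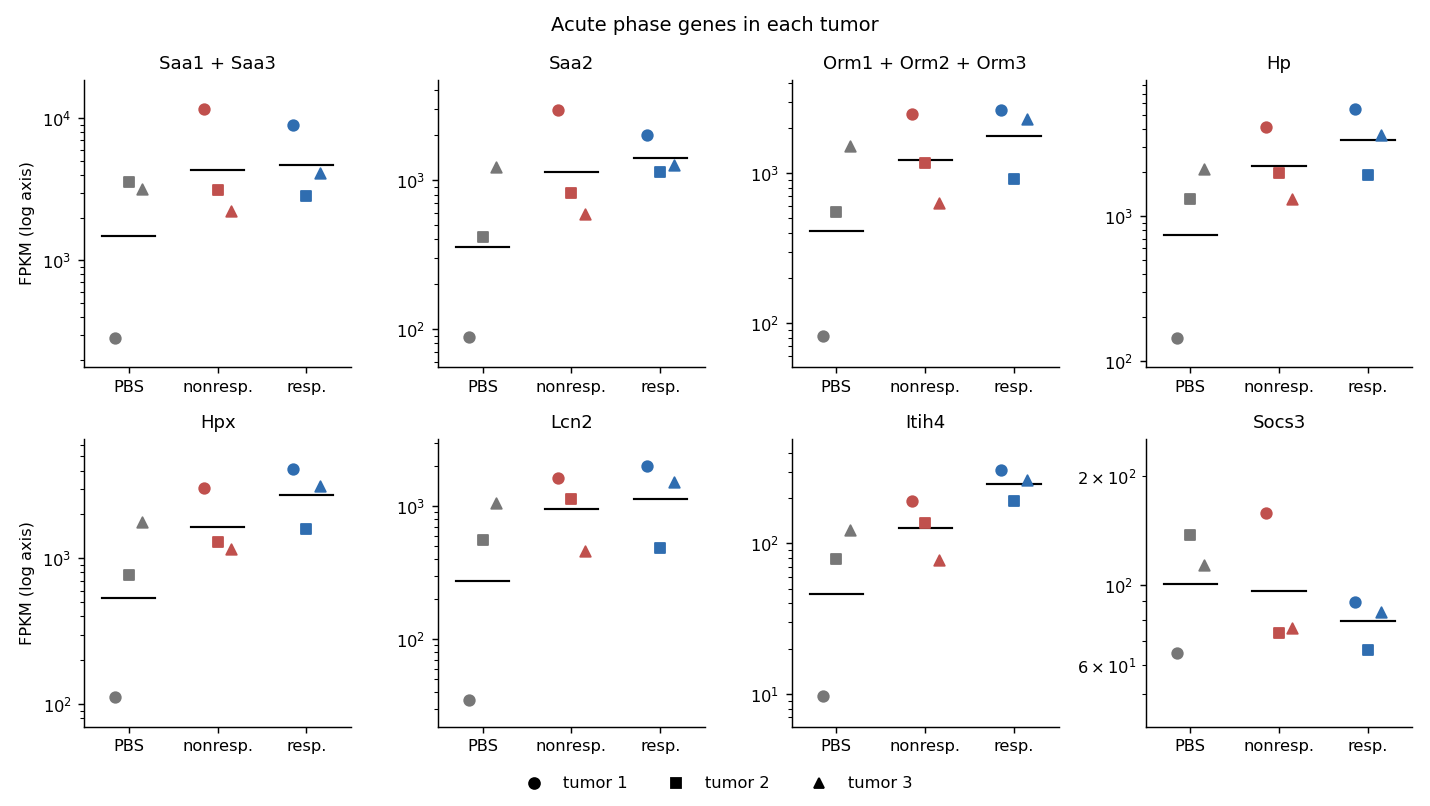
FPKM on a log axis of each member or joined locus in every tumor, by group, with markers for tumors 1, 2 and 3 and a bar at the mean of the log2 values. PBS tumor 1 was lowest in every panel, by a small margin only for Socs3, and Itih4 is the 1 panel where responsive tumors (191 to 307) sit wholly above PBS tumors (9.72 to 123).

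PBS tumor 1 was the lowest tumor for all 10 members. With entries joined where genes shared them, it was between 4.67-fold (Saa2) and 8.99-fold (Hp) under the next tumor in the 7 loci of secreted proteins, and 1.02-fold for Socs3. At the other end, responsive tumor 1 was highest for 6 members and nonresponsive tumor 1 for 4.

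Responsive against nonresponsive tumors address which genes differ with the outcome of antibody treatment. Itih4 was higher in responsive tumors, 1.96-fold in geometric means of FPKM + 1, with an arithmetic mean FPKM of 254 ± 58.3 (SD, n = 3) against 135 ± 57.2 (SD, n = 3). The heme scavengers came next, Hpx at 2939.9 ± 1260.2 against 1823 ± 1039 and Hp at 3674 ± 1763 against 2484 ± 1485, and Socs3 was the 1 member with a lower mean, 80.1 ± 12.2 against 102 ± 47.8. On the log2(FPKM + 1) scale, which every difference below uses, the difference for Itih4 was 0.97 (SE 0.395, limma p = 0.0494, Benjamini-Hochberg adjusted p = 0.886; exact permutation test, two-sided, p = 0.2). That of Hpx was 0.73 (SE 0.570, limma adjusted p = 0.973) and that of Hp 0.61 (SE 0.621, adjusted p = 0.973). The joined Orm genes differed by 0.53, Saa2 by 0.33, Lcn2 by 0.27, the joined Saa1 and Saa3 by 0.12 and Socs3 by −0.27, each smaller than the larger SD of the groups compared. With limma, 1 of 10 members had an unadjusted p under 0.05, against 5.49% of 13832 features tested, and 0 of 10 passed after adjustment, against 0.116%. That share of 1 in 10 is near the background and shows nothing particular to these genes. No member had groups free of overlap, against 10.5% of features. Itih4 no longer passed an unadjusted 0.05 without nonresponsive tumor 2 (difference 1.02), nonresponsive tumor 3 (0.62), responsive tumor 1 (0.82) or responsive tumor 3 (0.93), nor in a fit of all 9 tumors.

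Responsive against PBS tumors showed the largest differences. The mean FPKM of Itih4 was 254 ± 58.3 against 70.4 ± 56.9 (SD, n = 3 each), and the geometric means of FPKM + 1 differed 5.29-fold, by 2.40 on the log2 scale (SE 0.938, limma p = 0.0448, adjusted p = 0.288; p = 0.1 by exact permutation, which 3 against 3 tumors cannot go under). Hpx followed at 2.35 (SE 1.07, limma adjusted p = 0.305), Hp at 2.19 (SE 1.09, adjusted p = 0.322) and Saa2 at 1.99 (SE 0.965, adjusted p = 0.317). The joined Orm genes differed by 2.11 (SE 1.10, limma adjusted p = 0.310), where taking each symbol alone gave 2.60 for Orm1 and 2.99 for Orm2, because the copies were separate in 2 PBS tumors and merged in the responsive ones. Lcn2 differed by 2.05, or 1.69 with its neighbour added in all tumors, and the joined Saa1 and Saa3 by 1.68 (SE 1.08, limma adjusted p = 0.382). Socs3 differed by −0.34 (SE 0.323, limma adjusted p = 0.547), and 0 of 3 responsive tumors exceeded the PBS median. With limma, 1 of 10 members had an unadjusted p under 0.05, against 17.2% of 13841 features, and 0 of 10 passed after adjustment, against 0.231%. Itih4 was also the 1 member without overlap, in a comparison where 28% of features had none and 11.6% had none with responsive tumors higher.

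The size of these differences rested on PBS tumor 1. Without it 2 of 10 members passed an unadjusted 0.05, against 9.13% of features. Itih4 then differed by 1.33, still past an unadjusted 0.05, Hp by 1.01, Saa2 by 0.99, Hpx by 1.22, and, in joined loci, Orm by 0.95, Lcn2 by 0.52 and Saa1 with Saa3 by 0.50, while Socs3 then passed an unadjusted 0.05 in the lower direction at −0.65. Without PBS tumor 3, the PBS tumor with the highest Hp and Hpx, 6 of 10 members, in 5 separate loci because Orm1 and Orm2 are merged, passed an unadjusted 0.05, against 11.6% of features, with differences of 2.87 for Saa2, 2.95 for Hp, 3.21 for Hpx and 3.10 for Itih4. Itih4 did not pass without PBS tumor 2 (difference 2.78) or without responsive tumor 1 (2.25), 2 (2.59) or 3 (2.36). Over all genes, PBS tumor 1 had the lowest median correlation with the other 8 tumors, 0.859, where the remaining tumors had from 0.876 to 0.910 and PBS tumor 3 had 0.908.

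Nonresponsive against PBS tumors gave smaller differences than responsive against PBS tumors for all 10 members, though whether the sizes differ was not tested. By symbol, 9 of 10 members had a higher mean in nonresponsive tumors, from 1.43 for Itih4 to 2.46 for Orm2, and Socs3 differed by −0.066 (limma adjusted p = 0.953). Saa2 differed by 1.66 (SE 1.10, limma adjusted p = 0.718) and Hp by 1.58 (SE 1.09, adjusted p = 0.718), each with overlapping groups. With limma, 0 of 10 members had an unadjusted p under 0.05, against 3.22% of 13793 features, and 0 of 10 an adjusted p under 0.05, against 0.0798%. Groups free of overlap were found for 0 of 10 members and 8.21% of features. Without PBS tumor 1 the differences of Saa2 and Hp were 0.66 and 0.41, where 1.64% of features passed an unadjusted 0.05. Without PBS tumor 3 the symbols Orm1 (3.26) and Orm2 (3.84) passed, against 2.28% of features, but these set separate PBS entries against merged ones. In joined loci without PBS tumor 3, Orm (2.52) did not pass and Saa2 (2.54) and Hpx (2.35) did.

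**Figure D2:**
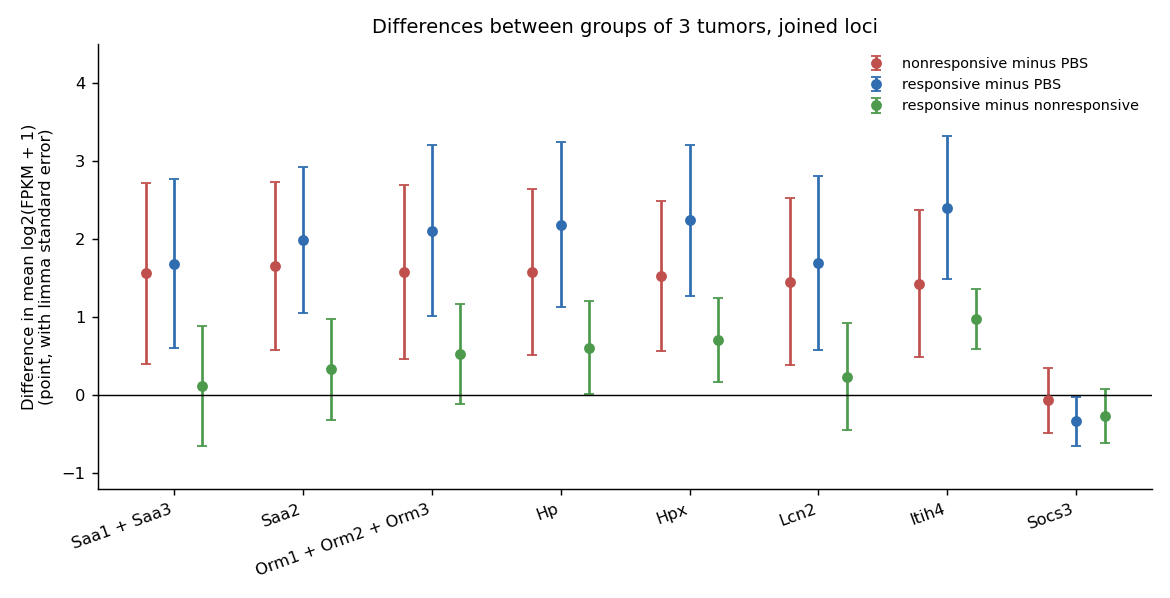
Differences between group means in log2(FPKM + 1) for the 8 separate loci of the members, with limma standard errors, in the 3 comparisons. Points lie above 0 for 7 loci and below it for Socs3, and error bars are widest in both comparisons with PBS, where differences of 1.43 to 2.40 for the secreted proteins had an SE of 0.91 to 1.16.

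The other genes of the pathway set these values in context. Of 22 further positive acute phase genes, 2 had an unadjusted p under 0.05 and a higher mean in responsive than in nonresponsive tumors, Itih3, a chain of the same inhibitor family, at 1.02 and Agt, which encodes angiotensinogen, at 1.16. Their median difference was 0.83, against 0.43 for the members and −0.066 for all features. Leaving out single tumors, the median of the members changed sign to −0.043 when nonresponsive tumor 3 was omitted and reached 1.03 when nonresponsive tumor 1 was, and that of the further positive genes was 0.46 and 1.31 with the same tumors omitted. Of 11 negative acute phase genes, whose products decline in blood during inflammation, 5 passed in the higher direction, the glucocorticoid carrier gene Serpina6 (1.76), the retinol carrier gene Rbp4 (1.41), Fetub (1.22), the vitamin D carrier gene Gc (1.15) and the albumin gene Alb (1.34), with 4.05% of all features passing in that direction, and their median was 1.34, or from 0.89 to 1.74 when single tumors were left out. The FPKM of Alb was 2678, 1489.99 and 885 in nonresponsive tumors 1 to 3 against 5041, 2576 and 4396 in responsive tumors 1 to 3, with 1 nonresponsive tumor above 1 responsive tumor. Of the positive list, the metallothionein genes Mt1 (−0.50) and Mt2 (−0.76), named after their values were seen, had lower means in responsive tumors. These 2 genes did not pass an unadjusted 0.05. For each of the 7 genes of the 2 lists that did pass, the adjusted p was 0.886 with limma.

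Against PBS, 11 of 22 positive acute phase genes passed an unadjusted 0.05 in the higher direction in responsive tumors, where 8.48% of all features did. The 22 are not all separate measurements. Serpina1a and Serpina1b had equal values in every tumor but PBS tumor 1, where they were 28.5 and 61.2 FPKM. Of the 11, those with the smallest p-values were Agt (2.43), the fibrinogen chain Fgb (3.07), the protease inhibitor Serpina3n (2.65) and the fibrinogen chains Fgg (2.73) and Fga (2.81). Serpina3n had the same values as Serpina3k and Serpina3m in all tumors, so its difference cannot be assigned to 1 of these genes. Fga and Fgg held 1 equal value, 1769 FPKM, in responsive tumor 3. Of the negative acute phase genes 11 of 11 passed in the higher direction, with a median of 2.72 and no overlap for any. The median was 2.27 for the positive list, 2.12 for the members and −0.11 for all features. Without PBS tumor 1 the first 3 medians were 1.74, 1.28 and 1.00. The FPKM of Alb was 173, 835 and 1259 in PBS tumors 1 to 3 and its difference 2.76 (SE 0.811, limma adjusted p = 0.281). In nonresponsive against PBS tumors 0 of 22 and 1 of 11 passed, the latter being Igf1 at 1.32, where 3.22% of all features passed in either direction. The medians of the 2 lists were 1.36 and 1.32, or 0.38 and 0.43 without PBS tumor 1.

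Upstream genes showed few differences. Of 8 inducing cytokines tested, 0 had an unadjusted p under 0.05 with limma in any comparison. Il6, the main inducer, had an FPKM of 1.19, 9.27 and 4.30 in PBS, of 10.8, 4.20 and 3.04 in nonresponsive tumors and of 3.67, 1.74 and 3.86 in responsive tumors, which overlapped. Il1b ran from 36.5 in PBS tumor 1 to 1062 in nonresponsive tumor 1. Of 7 receptor genes, Il6ra, the interleukin-6 binding chain, was lower in responsive than in nonresponsive tumors by 0.57 on the log2 scale (limma adjusted p = 0.886), with an FPKM of 10.1, 8.35 and 10.4 against 16.7, 14.9 and 12.8 and no overlap. Among 13 transducers and transcription factors, Stat3 differed by −0.010 between the same groups, at 58.1 ± 4.85 against 58.9 ± 9.70 (SD, n = 3 each), and Cebpb by −0.14. The 1 that passed was Hnf4a, a factor of the hepatocyte lineage, which was higher in responsive tumors by 1.05 (limma adjusted p = 0.886) and exceeded PBS tumors by 1.40 (limma adjusted p = 0.219). Between responsive and nonresponsive tumors 5.49% of all features passed in either direction. Against PBS, 3 of the 13 passed in the higher direction, where 8.48% of all features did. Among them were Hnf4a and Cebpa (1.35), also a lineage factor of the liver. The kinase gene Jak2 (−0.69) was the 1 that passed in the lower direction, and among the receptors Lifr (1.48) passed in the higher. After adjustment 0 of the 13 and 0 of the 7 receptor genes passed with limma in any comparison. Of 8 feedback and early target genes beside Socs3, 0 passed with limma in any comparison at an unadjusted 0.05.

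**Figure D3:**
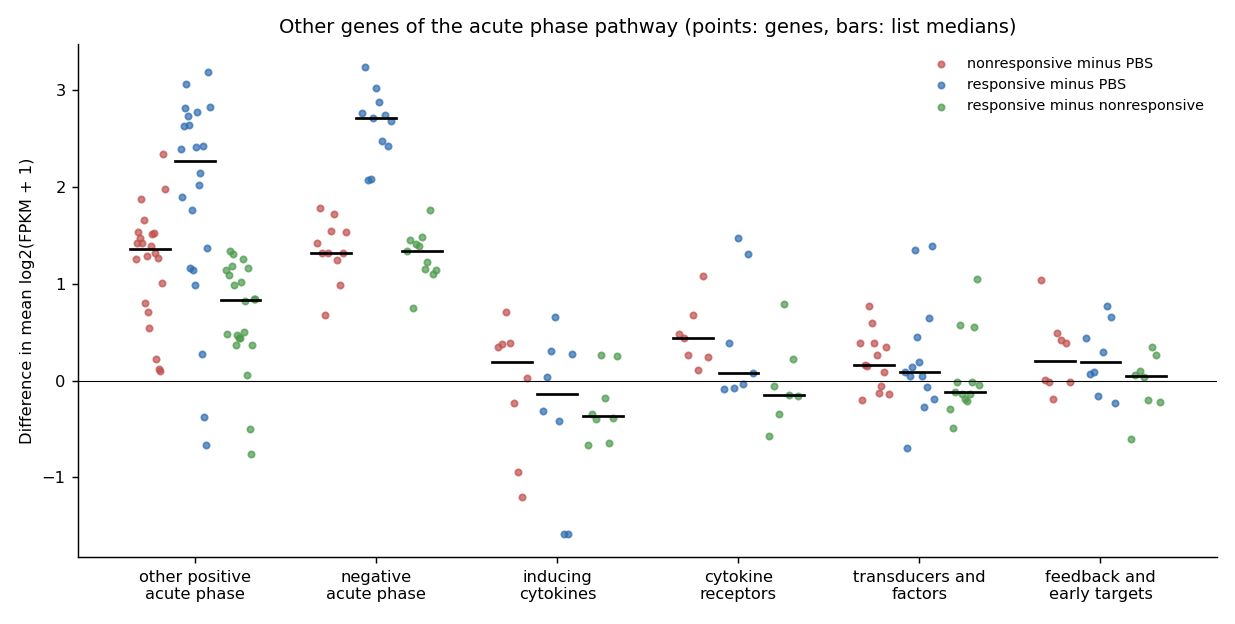
Differences between group means in log2(FPKM + 1) of the single genes of 6 lists of the acute phase pathway, in the 3 comparisons, with a black bar at each list's median. The medians of the lists of negative and positive acute phase genes lie above 0, at 2.72 and 2.27 in responsive against PBS tumors. The medians of the 4 lists of cytokines, receptors, transducers and feedback genes lie between −0.36 and 0.44.

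Markers of hepatocytes, the cells that make most acute phase proteins, were read in the same tumors. Of 20 hepatocyte markers, none of them a member, 13 had an unadjusted p under 0.05 and a higher mean in responsive than in nonresponsive tumors. The number was 18 in responsive against PBS tumors, and 1 in nonresponsive against PBS tumors. Of all features, 4.05% and 8.48% passed in the higher direction in the first 2 comparisons, and 3.22% in either direction in the third. After adjustment 0 of the 20 passed with limma in any comparison. Cyp2e1, which oxidises ethanol and other small molecules, reached 678, 389.7 and 168 FPKM in nonresponsive tumors 1 to 3, and 1673, 833 and 1039 FPKM in responsive tumors 1 to 3. The urea cycle gene Arg1 ran the other way, at 676, 414 and 162 FPKM in nonresponsive tumors and 407, 149.97 and 177 FPKM in responsive tumors, a difference of −0.69 with overlap (limma adjusted p = 0.973). Over the 9 tumors, Itih4 followed the mean of the 20 markers most closely, with a Pearson r of 0.977 (exact permutation test, p = 5.51e-06, adjusted p = 1.10e-04 over 20 relations) and a Spearman rho of 0.983 (exact permutation test, adjusted p = 9.92e-04). The r of Itih4 was 0.975 without PBS tumor 1 and responsive tumor 1, the 2 tumors farthest from the median of the marker mean. For Hp the r was 0.952 (rho 0.850), for Hpx 0.947 (rho 0.900), for the joined Orm genes 0.925 (rho 0.833), for Saa2 0.912 (rho 0.817), for Lcn2 0.892 (rho 0.800) and for the joined Saa1 and Saa3 0.889 (rho 0.683), with adjusted p-values of at most 0.00680 for r by exact permutation. Without the same 2 tumors these were between 0.530, for the joined Saa genes, and 0.827, for Hp. Without PBS tumor 1 alone, in joined loci, Itih4 (r = 0.977) and Hp (r = 0.895) still passed 0.05 after adjustment, and Hpx (r = 0.863), the Orm genes (r = 0.794), Saa2 (r = 0.760), Saa1 with Saa3 (r = 0.684) and Lcn2 (r = 0.678) did not. By symbol Hpx still passed, and Saa1 alone had the lowest r of the secreted proteins, 0.530. Socs3 had an r of 0.257 (exact permutation test, p = 0.509), and −0.096 without PBS tumor 1. The points pool the 3 groups, which differ in the marker mean, and groups of 3 are too small for an r of their own.

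Neutrophil genes, 13 in all, did not separate the groups, with a mean in log2(FPKM + 1) from 2.45 to 5.08 in PBS, from 3.90 to 6.32 in nonresponsive and from 3.64 to 5.67 in responsive tumors, lowest again in PBS tumor 1. S100a9, an abundant neutrophil gene, had an FPKM of 254 in nonresponsive tumor 3 and 209 in responsive tumor 2, the same pair of treated tumors that was low in Lcn2. This pair was not particular to Lcn2. It was also the lowest of the treated tumors for Hp (1306 and 1934), the joined Orm genes (637 and 913) and Saa1 with Saa3 (2233 and 2859). Lcn2 had the highest r with this list, 0.897 (rho 0.817; exact permutation test, adjusted p = 0.00251), and 0.793 without PBS tumor 1 and responsive tumor 2. That of Itih4 was 0.765 (rho 0.617; exact permutation test, adjusted p = 0.0203), and that of Socs3 0.656 (rho 0.633; exact permutation test, adjusted p = 0.0576). Without PBS tumor 1 the r of Itih4 was 0.428, and by symbol Saa2, Saa3, Orm1, Orm2, Hp, Hpx and Itih4 no longer passed with this list after adjustment. By symbol Saa1 and Lcn2 (r = 0.8425) still passed. In joined loci Lcn2 (r = 0.829, exact permutation test, adjusted p = 0.0623) and Saa1 with Saa3 (r = 0.681, adjusted p = 0.101) did not. The neutrophil and hepatocyte means were themselves related (r = 0.708 over the 9 tumors), so their parts cannot be read separately from these values.

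Macrophage genes, 11 in all and none listed at 0 in any tumor, had a mean in log2(FPKM + 1) from 5.05 to 6.32 in PBS, from 6.27 to 7.45 in nonresponsive and from 6.00 to 7.26 in responsive tumors. In nonresponsive against PBS tumors all 11 had a higher mean, with a median difference of 1.22. Of these, 3 passed an unadjusted 0.05, against 3.22% of all features in either direction. C1qb and C1qc held the same value in nonresponsive tumor 1 (869 FPKM) and in nonresponsive tumor 2 (972 FPKM). Their values were separate in the other tumors, PBS tumors among them. Counts and medians of this list therefore partly set merged entries against separate ones, and these were not joined. In responsive against PBS tumors 1 passed in the higher direction, against 8.48% of features, with a median of 0.63. In responsive against nonresponsive tumors 0 passed with limma, with a median of −0.50. After adjustment 0 of 11 passed in any comparison. Lyz2, a lysozyme gene of macrophages, ran from 603 FPKM in PBS tumor 1 to 6745 FPKM in responsive tumor 1. The part of macrophages in the values of Saa3 was not tested.

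**Figure D4:**
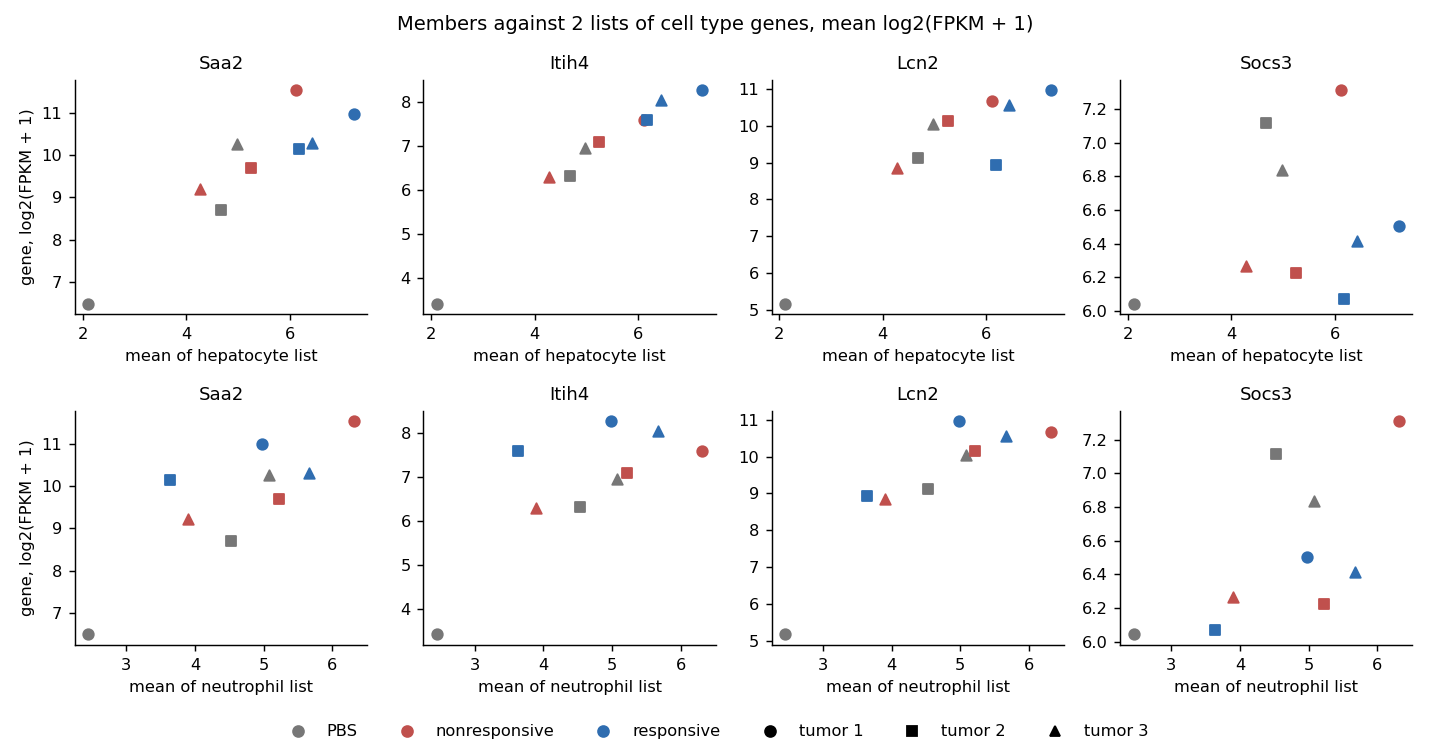
Level of members in log2(FPKM + 1) against the mean level of the 20 hepatocyte genes and of the 13 neutrophil genes, 1 point per tumor, coloured by group and marked by tumor number. Tumors with a higher hepatocyte mean had more Itih4 over the whole range (r = 0.977), Lcn2 went with both means (r = 0.892 and 0.897), and Socs3 had a weak relation to the hepatocyte mean (r = 0.257).

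When the hepatocyte mean of each tumor was added as a covariate in a fit of all 9 tumors, the members' differences between responsive and nonresponsive tumors were negative for all 10, where 9 had been positive. Those of Lcn2 (−1.81), the Saa3 symbol (−1.77), the Saa1 symbol (−1.78), Saa2 (−1.26), Hp (−1.08) and Socs3 (−0.81) had an unadjusted limma p under 0.05, with adjusted p-values from 0.378 to 0.452, while Itih4 (−0.47, adjusted p = 0.648) did not. In this fit 1457 of 13832 features passed the same threshold, or 10.5%, and 27.7% of these were in the higher direction, against 56.8% in the fit of all 9 tumors without the covariate. The covariate itself separates responsive from nonresponsive tumors without overlap, so these values rest on comparing tumors of unequal hepatocyte level, and the part of hepatocyte content in the members' differences was not tested further.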

How the data were processed

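RNA from 9 whole tumors, 3 per group, was sequenced after TruSeq library preparation. The authors deposited 1 Cufflinks table per tumor, of FPKM per assembled gene scaled by transcript length and mapped fragments. Processing notes of the submitters name TopHat2 2.1.1, Bowtie2 2.2.4 and mm8. Bounds of 0 of 10 members equalled those of GRCm38, so no coordinates of these tables are given. The deposited Cuffdiff table holds group values, fold changes and p-values of the authors' comparisons and was not used.

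FPKM of all entries naming a symbol were summed, 13 symbols with a failed estimate were left out, and symbols with equal values in all tumors were 1 feature. Where genes shared an entry in any tumor, the sum of all genes joined (48254 loci) is given beside. Pairwise comparisons used limma 3.58.1 in R 4.3.3 (lmFit, eBayes with trend) on log2(FPKM + 1), the pseudocount of 1 understating changes of low genes, over features that reached an FPKM of 1 in 3 or more of the 6 tumors, with Benjamini-Hochberg adjustment over all features. Exact permutation tests were two-sided (Python 3.11.15, scipy 1.17.1), and plots used matplotlib 3.10.9. The scripts were tested on simulated data. No pair of tumors was a duplicate.

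Members and gene lists were chosen with earlier results of these data known, so list counts are descriptions. Genes named were taken from the members, the 3 most abundant genes of each list, and up to 5 genes per pathway list with the smallest unadjusted p under 0.05. Il6, Igf2 and H19, like Mt1 and Mt2, were named outside this rule. Alternatives were a pseudocount of 0.1, no filter, upper-quartile scaling, robust eBayes, 1 fit of 9 tumors, that fit with the hepatocyte mean, joined loci, a replicate block and leaving out each tumor; joined loci without PBS tumor 1 or 3, and joined relations, were added after seeing the data. Some genes of the lists are not reported here.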

Additional observations from a re-analysis of the deposited data

How the results depend on the processing

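In responsive against nonresponsive tumors, 1 of 10 members had an unadjusted p under 0.05 with limma. The number was 0 with a pseudocount of 0.1, robust eBayes, upper-quartile scaling or a fit of all 9 tumors. It was 6 in that fit with the hepatocyte covariate, where 10.5% of features passed, and 0 to 1 when single tumors were left out. Of all features, 5.44% passed with the pseudocount, 5.41% with robust eBayes, 4.97% with scaling and 5.64% in the 9-tumor fit. Leaving out single tumors, 2.31% to 10.5% passed, against 5.49% in the main setting. In responsive against PBS tumors the 1 of the main setting became 3 in the 9-tumor fit, 3 with the covariate, 2 in joined loci without PBS tumor 1 and 6 in joined loci without PBS tumor 3, both chosen after seeing the data, and 0 to 6 when single tumors were left out. Of all features 14.9%, 5.14%, 9.68%, 12.6% and 7.44% to 28.6% passed there, against 17.2%. In nonresponsive against PBS tumors it was 0, 2 in joined loci without PBS tumor 3, and 0 to 2 when single tumors were left out, where 3.22%, 2.31% and 1.61% to 13.8% of features passed. No member passed after adjustment in any setting.

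The covariate reversed the most directions. In responsive against nonresponsive tumors it gave −1.78 for Saa1, −1.26 for Saa2, −1.77 for Saa3, −1.37 for Orm1, −1.46 for Orm2, −1.08 for Hp, −0.86 for Hpx, −1.81 for Lcn2 and −0.47 for Itih4. Against PBS it gave −1.98, −1.08, −1.94, −1.05, −0.82, −1.07, −0.70, −1.95 and −0.36 for the same genes in responsive tumors, and −0.20 for Saa1, −0.17 for Saa3 and −0.14 for Lcn2 in nonresponsive tumors. Leaving out single tumors, differences between responsive and nonresponsive tumors ran from −0.14 to 0.37 for Saa1, −0.14 to 1.02 for Saa2, −0.23 to 0.61 for Saa3, −0.25 to 0.88 for Lcn2 and −0.46 to 0.084 for Socs3, and those between nonresponsive and PBS tumors from −0.082 to 2.39 for Saa1 and −0.42 to 0.16 for Socs3, which was 0.021 without PBS tumor 3, joined or not. The r of Socs3 with the hepatocyte mean ran from −0.096, without PBS tumor 1, to 0.382. Of 460 recomputed differences of single members, 392 kept direction and call.

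Replicate numbers did not pair the tumors: deviations of same-numbered tumors correlated at 0.475, 0.045 and −0.050 in responsive and nonresponsive, −0.292, −0.324 and 0.137 in responsive and PBS, and −0.395, −0.054 and −0.173 in nonresponsive and PBS tumors. With the replicate block, 1, 0 and 0 members were called in these comparisons, and 934, 948 and 237 features against 759, 2387 and 444 without it.

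With 3 tumors a group, spreads of over 10-fold among PBS tumors and no count of sequenced fragments, members' differences between responsive and nonresponsive tumors, all under 1 on the log2 scale, are not separated from the spread. Entries merged in some tumors only limit 6 members, Saa1, Saa3, Orm1, Orm2, Hpx and Lcn2, and some genes of the lists. The unequal share of unnamed entries limits how far FPKM compare between groups. The cause of these dependences was not tested.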
